A study of Homo sapiens with 14 samples.

Results

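The clustered protocadherins on 5q31 were taken as every row of the deposited RNA tables whose hg19 locus lies in the 5q31 window of the 3 clusters. Its rows run from 140165876 to 140892546 on chromosome 5. This gave 92 of 204092 rows, at 25 of 35671 loci. The alpha cluster was a single merged locus of 34 transcripts, the beta cluster 20 separate loci with 26 transcripts, and the gamma cluster a single merged locus of 27 transcripts. The remaining 5 transcripts, at 3 loci, lay between beta and gamma and are described apart. Rows were taken by position alone, but the window was chosen with earlier results of these data known.

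Both groups were HEK293T cells, a human embryonic kidney line. The wild type group was the line itself. In the other group SETD2 had been knocked out, and how the knockout was made, or whether it is 1 clone, is not stated in the labels. SETD2 is the enzyme that trimethylates histone H3 along transcribed genes (H3K36me3). The labels list 3 RNA libraries per group, made from RNA depleted of ribosomal RNA, but 1 wild type entry describes a ChIP procedure instead. The deposited RNA tables hold 1 value per group, so no value of a single library can be shown, the depth is unknown, and nothing in the labels says whether libraries came from separate cultures. The 8 ChIP samples were not analysed here.

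Clustered protocadherins are homophilic cell adhesion proteins that give individual neurons a surface identity and let their branches avoid one another. In the alpha and gamma clusters each variable exon has its own promoter and is spliced to a shared set of constant exons, while each beta gene is a single exon without a constant part. A distant enhancer is brought to chosen promoters by CTCF and cohesin, and promoters not chosen are silenced and DNA methylated. RefSeq (GRCh38.p14) lists 15 protein-coding alpha, 16 beta and 22 gamma genes. It lists SLC25A2 and TAF7, neither of them a protocadherin, as the protein-coding genes between the last beta and the first gamma gene. The tables give transcript IDs only, and 0 of the 92 IDs matched a gene name, so transcripts are named by ID and loci by position. A protocadherin transcript means here a row that lies in the alpha, beta or gamma cluster, and no row was shown to encode a protocadherin. Which gene each row belongs to, the level of SETD2, and the other genes that act on the clusters were not analysed here. For the same reason the HEK293T identity was not checked by marker genes.

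The promoters of the family are shown here because each cluster carries its own form of a conserved element with the letters CGCT at its core, to which CTCF binding has been linked. Each stretch is copied from RefSeq (GRCh38.p14, plus strand), and the capitals mark the motif searched for. They are the first pair of genes per cluster, in the table's order, that hold the motif, and no row of the RNA tables is tied to any of them.
PCDHA1 (chr5:140786076-140786125): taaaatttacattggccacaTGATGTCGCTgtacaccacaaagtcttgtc
PCDHA2 (chr5:140794771-140794820): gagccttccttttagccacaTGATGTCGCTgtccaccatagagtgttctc
PCDHB2 (chr5:141094535-141094584): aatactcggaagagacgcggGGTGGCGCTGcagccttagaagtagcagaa
PCDHB3 (chr5:141100384-141100433): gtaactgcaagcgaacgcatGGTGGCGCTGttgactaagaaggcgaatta
PCDHGA1 (chr5:141330395-141330444): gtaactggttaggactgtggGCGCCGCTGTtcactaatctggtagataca
PCDHGB1 (chr5:141350017-141350066): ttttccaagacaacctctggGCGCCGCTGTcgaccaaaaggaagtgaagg

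For each cluster the motif is the stretch of 10 letters holding CGCT that was found in more of its promoters than any other such stretch, with ties settled by the fewest matches over all promoters. It was derived from these promoters and then counted, on both strands, in windows of 300 bases around each start site. TGATGTCGCT was found in 8 of 13 alpha promoters and in 0.0342% of all 35116 promoters. GGTGGCGCTG was found in 12 of 14 beta promoters and in 0.276% of all. GCGCCGCTGT was found in 10 of 25 gamma promoters, a count that includes several start sites for some genes, and in 0.131% of all. None of the 3 motifs was found in a promoter of the other clusters. All 3 hold CGCT, which is common by itself, in 70.0% of all promoters. In the beta promoters the motif began a median of 65.5 bases before the start site. Because the motifs were chosen from the promoters they are counted in, the counts are a description, and they say nothing of binding in these cells.

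Each single protocadherin transcript was listed at a low level in both groups, and of the 22 cluster loci only gamma summed to over 1 FPKM. Levels are in FPKM, fragment counts scaled to transcript length and to the mapped fragments of the library, so that transcripts of different length can be compared. None of the 87 alpha, beta and gamma transcripts reached 1 FPKM in either group, and the highest was a gamma transcript at 0.801 FPKM in the knockout against 0.810 FPKM in the wild type. Only 17 of the 87 reached 0.1 FPKM in a group, 11 of them gamma, 5 beta and 1 alpha. A value of 0 in both groups was listed for 26. Low levels are common in these tables, since 64.6% of all loci summed to under 1 FPKM in both groups. In bulk RNA, fewer cells that express a gene and less RNA per cell cannot be told apart.

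The comparison of knockout with wild type asks which transcripts differ in cells without SETD2. No clustered protocadherin transcript passed the authors' deposited test. Of the 87 transcripts the authors tested 5, all in gamma, and a further 2 of the 5 between the clusters, while they tested 42.1% of all rows. Of these 7, 0 passed a q-value of 0.05 (the authors' test; Cuffdiff is among the programs named in the submitters' processing notes), and 0 had an unadjusted p under 0.05 there. Over all rows 219 of 85852 tested were called, which is 0.255%, and 2.38% had an unadjusted p under 0.05. Among tested rows above 0 and under 1 FPKM in both groups, the range that holds the 5 gamma transcripts, 5 of 19107 were called, which is 0.0262%. The tests thus rarely made a call at these levels, and a count of 0 does not show that the groups were alike. Of the 17 transcripts reaching 0.1 FPKM in a group, 7 were at least 2-fold apart with a pseudocount of 0.1, 3 of them higher and 4 lower in the knockout, against 45% of all rows of that level. The authors' intervals of the groups overlapped, or met at 0, for all 87 transcripts. In the knockout 1 of them had a lower bound above 0, and 2 did in the wild type. Intervals that both begin at 0 always overlap or meet, so the overlap was nearly fixed beforehand. How often it occurs over all rows was not counted, and nothing about these transcripts can be read from it.

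Summed over their transcripts, the 3 clusters together stood at 3.92 FPKM in the knockout against 3.56 FPKM in the wild type, a log2 ratio of 0.14. The sum was made up differently. Alpha stood at 0.141 FPKM in the knockout against 0.311 FPKM in the wild type, and beta at 0.416 and 1.17 FPKM, so both were listed lower in the knockout, by 2.20-fold and 2.81-fold. Gamma went the other way, with 3.36 FPKM in the knockout against 2.08 FPKM in the wild type, 1.61-fold higher. The sums have no error of their own, and the differences between clusters were not tested.

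**Figure D1:**
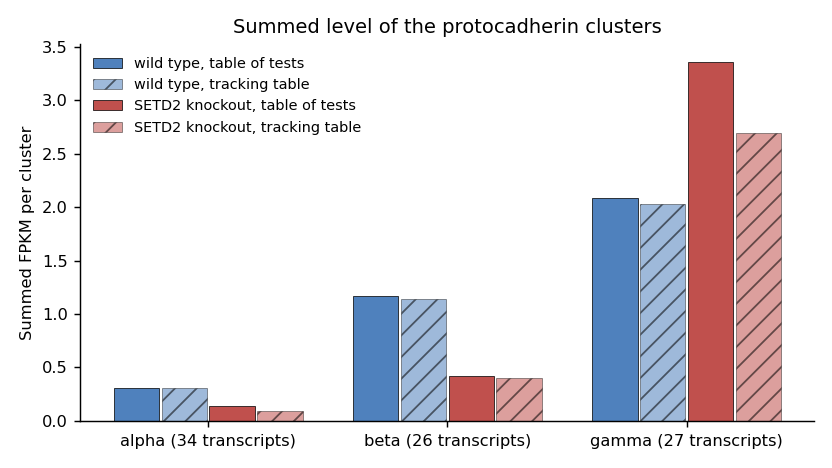
Summed FPKM of the alpha, beta and gamma clusters in wild type (blue) and SETD2 knockout (red), from the table of tests (solid) and the tracking table (hatched). Each bar is 1 group value without an error. Gamma holds most of the signal and is the only cluster listed higher in the knockout, in both tables.

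The knockout values depend on which of the authors' tables is read. Each group appears in the table of tests, used unless stated otherwise, and in the tracking table, which also holds the intervals. Wild type tracking values were a median of 0.976 of those in the table of tests, over all rows of at least 0.5 FPKM. For the knockout, 24 of the 33 protocadherin transcripts above 0 lay within 1% of a ratio of 0.652, and the others varied. That ratio was the most frequent, in a preset range, among all rows of at least 0.5 FPKM in the knockout. Nearly all of the 33 lay below that level. A further 4 transcripts listed at 0 for the knockout in the table of tests had a tracking value above 0, and no wild type value did so. The number of libraries behind each column is not stated in the files or labels. With the tracking values alpha was 3.30-fold lower, beta 2.81-fold lower and gamma 1.32-fold higher in the knockout, and the sum of all 3 turned from higher in the knockout to 1.09-fold lower.

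The gamma cluster, at 5:140710252-140892546, held most protocadherin RNA. Its leading transcript, ENST00000398587, stood at 0.801 FPKM in the knockout against 0.810 FPKM in wild type cells, per the authors' deposited table (p = 0.977, q = 0.992, authors' test). In the tracking table it stood at 0.671 and 0.790 FPKM, and its intervals were 0.0355 to 1.31 FPKM for knockout cells and 0.198 to 1.38 FPKM for wild type cells. It was the only cluster transcript with a lower bound above 0 in both groups. The higher gamma sum of the knockout therefore came from the other 26 transcripts, which together stood at 2.56 FPKM in the knockout against 1.27 FPKM in the wild type, 2.01-fold higher, or 1.63-fold higher in the tracking table.

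Several gamma transcripts contributed to that difference. ENST00000518882 stood at 0.472 FPKM in the knockout against 0.0821 FPKM in the wild type, 5.75-fold higher, in the authors' deposited table (p = 0.405, q = 0.991, authors' test). In the authors' deposited table ENST00000308177 stood at 0.451 FPKM and 0.202 FPKM (p = 0.262, q = 0.991, authors' test). ENST00000518325 was 3.61-fold higher there, at 0.290 FPKM and 0.0803 FPKM in the authors' deposited table (p = 0.251, q = 0.991, authors' test). All of these missed the authors' threshold by far, and each interval in the tracking table began at 0 in both groups. The groups were closer for the fifth tested transcript, ENST00000306593, at 0.269 FPKM and 0.187 FPKM in the authors' deposited table (p = 0.599, q = 0.991, authors' test). Of the 8 gamma transcripts with the highest mean, the 3 not tested were ENST00000517434 at 0.187 and 0.0629 FPKM, ENST00000252087 at 0.167 and 0.0228 FPKM, and ENST00000398594 at 0.0771 and 0.106 FPKM, in the knockout and the wild type. Among these 8, 6 were listed higher in the knockout and 2 lower.

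**Figure D2:**
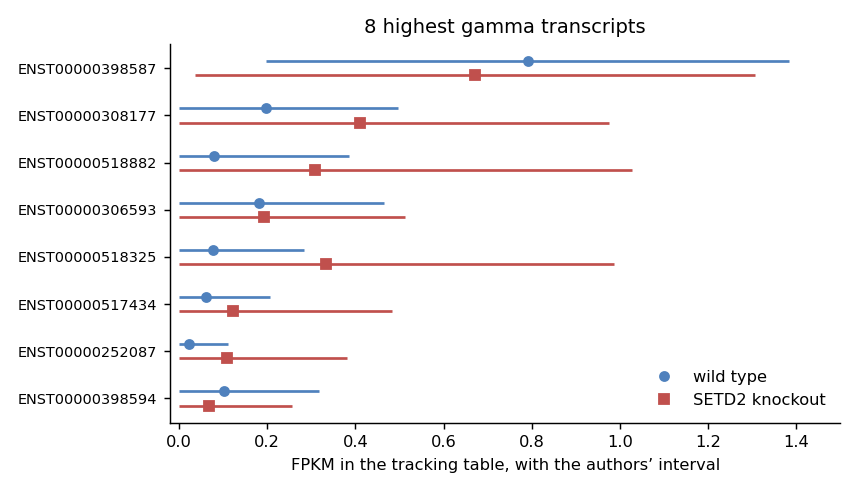
Tracking-table FPKM of the 8 gamma transcripts with the highest mean of the groups in the table of tests, for wild type (blue circles) and SETD2 knockout (red squares), with lines for the authors' deposited intervals. The intervals overlap for all 8, and those of ENST00000398587 alone start above 0.

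Over the whole gamma locus 15 transcripts were listed higher and 9 lower in the knockout, and 3 were at 0 in both groups. Over all rows with a mean of both groups above 0 and up to that of the highest gamma transcript, 35.9% were higher in the knockout. The other 64.1% were lower, so the balance within gamma was the opposite of the usual one at these levels. Of the 27 transcripts 5 were above 0 in the wild type alone, 18 in both groups and 1 in the knockout alone. Among all rows of that level, which leave out any at 0 in both groups, 40.7% were above 0 in the wild type alone. Gamma transcripts can share constant exons and reads, and which of the 27 do so was not established. They thus do not count as 27 separate observations, and the balance was not tested. As a locus, gamma was not unusual in size of difference. Of the 12620 loci reaching 1 FPKM in a group, 19.8% were at least as far apart in either direction, and 9.76% were higher in the knockout by at least as much. Among the 2908 loci whose higher group lay between 1 and 5 FPKM, 39.8% were at least as far apart. On the log2 scale gamma stood at 0.69, against a median of 0.06 over all 12620 loci and of 0.17 over the 573 on chromosome 5.

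The beta genes encode receptors without the shared cytoplasmic part. The beta cluster was measured as 20 separate loci, more than the 16 beta genes RefSeq lists, and which locus is which gene was not established. Of the 20 loci, 17 were above 0 in the wild type and 8 in the knockout, and 3 were at 0 in both groups. The median locus stood at 0.0215 FPKM in the wild type and at 0 in the knockout. Of the 17 loci above 0 in the wild type, 15 were lower in the knockout, 9 of them at 0, and 2 were higher. Among all 5267 loci with a mean of both groups above 0 and up to that of the highest beta locus, 75.9% were lower in the knockout and 56.5% were above 0 in the wild type and at 0 in the knockout. The beta count thus lies near what these tables show at such low levels, and nothing particular to beta can be read from it.

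Within beta the signal lay toward the gamma side. In the wild type the first 10 loci along the chromosome summed to 0.154 FPKM and the last 10 to 1.01 FPKM, and in the knockout to 0.0353 and 0.381 FPKM. The rank correlation of the wild type level with the order along the chromosome was 0.71 over the 20 loci. These loci share libraries and are near-copies of one another, so it is given as a description. The highest beta locus was 5:140602931-140605858, with 0.316 FPKM in the wild type and 0.0872 FPKM in the knockout. Next came the last locus, 5:140625147-140627799, with 0.213 and 0.0565 FPKM. Its wild type interval in the tracking table, 0.0106 to 0.406 FPKM, was the only one in beta that began above 0, and it overlapped the knockout interval of 0 to 0.105 FPKM.

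The loci at 5:140588269-140591696 and 5:140593509-140596993 followed, with 0.194 and 0.131 FPKM in the wild type and 0.0413 and 0.0389 FPKM in the knockout. These 4 loci were 3.36-fold to 4.69-fold lower in the knockout, and each remained above 0 there. In the tracking table the difference was smaller at 5:140588269-140591696, with 0.0896 FPKM in the knockout against 0.189 FPKM in the wild type. It was larger there at the other 3, with 0.0568 against 0.309 FPKM at 5:140602931-140605858, 0.0368 against 0.208 FPKM at 5:140625147-140627799 and 0.0254 against 0.127 FPKM at 5:140593509-140596993. The exceptions in direction were 5:140579183-140582618, with 0.0763 FPKM in the knockout against 0.0154 FPKM in the wild type, and 5:140613938-140617101, with 0.0599 and 0.0423 FPKM. The first of these remained higher in the tracking table, while the second stood at 0.0391 FPKM in the knockout against 0.0412 FPKM in the wild type there. The locus at 5:140514800-140517703 turned the other way: listed at 0 in the knockout and at 0.0205 FPKM in the wild type in the table of tests, it had 0.0408 and 0.0201 FPKM in the tracking table.

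**Figure D3:**
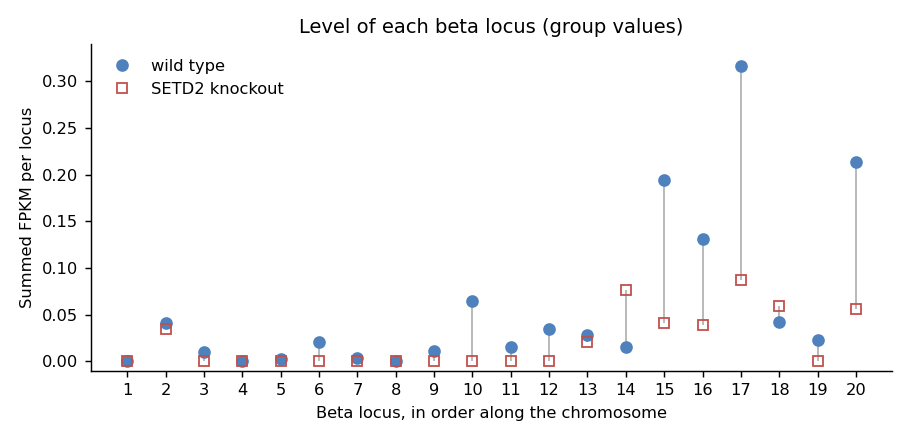
Summed FPKM of the 20 beta loci in order along the chromosome, for wild type (filled blue circles) and SETD2 knockout (open red squares), with grey lines joining the group values of a locus. No errors exist for these sums. The highest values lie among the last loci, and the knockout is lower at 15 loci, at 0 in 9 of these.

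The alpha cluster, at 5:140165876-140391936, had the lowest level. Of its 34 transcripts 14 were above 0 in the wild type and 3 in the knockout, and 19 were at 0 in both groups. No transcript was tested by the authors. ENST00000562220, the highest, stood at 0.133 FPKM in wild type cells, its interval running from 0 to 0.458 FPKM in the tracking table, and it was listed at 0 in the knockout. ENST00000307360 stood at 0.0876 FPKM in the wild type and was listed at 0 in the knockout. The 3 transcripts present in the knockout were ENST00000398640 at 0.0667 FPKM, ENST00000378132 at 0.0434 FPKM and ENST00000398631 at 0.0312 FPKM. In the wild type the first stood at 0.00335 FPKM, the second was listed at 0 and the third stood at 0.00168 FPKM.

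The groups thus listed mostly different alpha transcripts, with 2 above 0 in both, 12 in the wild type alone and 1 in the knockout alone. In alpha 12 transcripts were lower and 3 higher in the knockout, leaving out the 19 at 0 in both groups. The comparison rows were all rows with a mean of both groups above 0 and up to that of the highest alpha transcript. Of these, 66.3% were above 0 in the wild type and at 0 in the knockout, and 77.7% were lower in the knockout. Such a split is therefore common at this level.

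The composition of the merged loci was then compared. The transcripts were not tied to promoters, and alpha has more transcripts, 34, than the 15 genes RefSeq lists, so a share is that of a transcript and not of a promoter. Shares are percentages of the summed FPKM of the locus. In gamma, ENST00000398587 held 38.9% in the wild type and 23.9% in the knockout, a difference of -15.1 percentage points, although its own level was nearly the same. ENST00000518882 held 3.95% in the wild type and 14.1% in the knockout. ENST00000571252 held 5.30% in the wild type, where it stood at 0.110 FPKM, and was listed at 0 in the knockout. These 3 were the gamma transcripts whose share differed by at least 5 points, and all 3 did so in the same direction in the tracking table, where 5 passed that mark. How often transcripts of other merged loci of this level pass it was not counted, so nothing particular to gamma can be read from the count. In gamma the listed pattern of the knockout was more even. Its 3 leading transcripts held 51.3% of the locus against 57.6% in the wild type, and the effective number of transcripts (1 over the sum of squared shares) was 8.35 against 5.48. Alpha went the other way, with an effective number of 2.73 in the knockout against 3.65 in the wild type. These shares have no error, and the differences were not tested.

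In alpha the shares differed more, on far less RNA. ENST00000562220 and ENST00000307360 held 42.8% and 28.1% in the wild type and were listed at 0 in the knockout. ENST00000398640, ENST00000378132 and ENST00000398631 held 47.2%, 30.7% and 22.1% in the knockout, against 1.08%, 0% and 0.541% in the wild type. A further 3 transcripts, ENST00000502505, ENST00000378126 and ENST00000356878, held 5.31% to 5.68% in the wild type and were listed at 0 in the knockout. In all 8 alpha transcripts differed by at least 5 points, and the same 8 did so in the tracking table. That repeat is no separate support. All 3 transcripts above 0 in the knockout had tracking values at a ratio of 0.652 to the table of tests, and a common factor cancels in a share. How often transcripts of other merged loci pass this mark was not counted, so nothing particular to alpha can be read from the count. With a locus sum of 0.141 FPKM in the knockout, none of these shares has an error, and no interval of an alpha transcript began above 0.

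**Figure D4:**
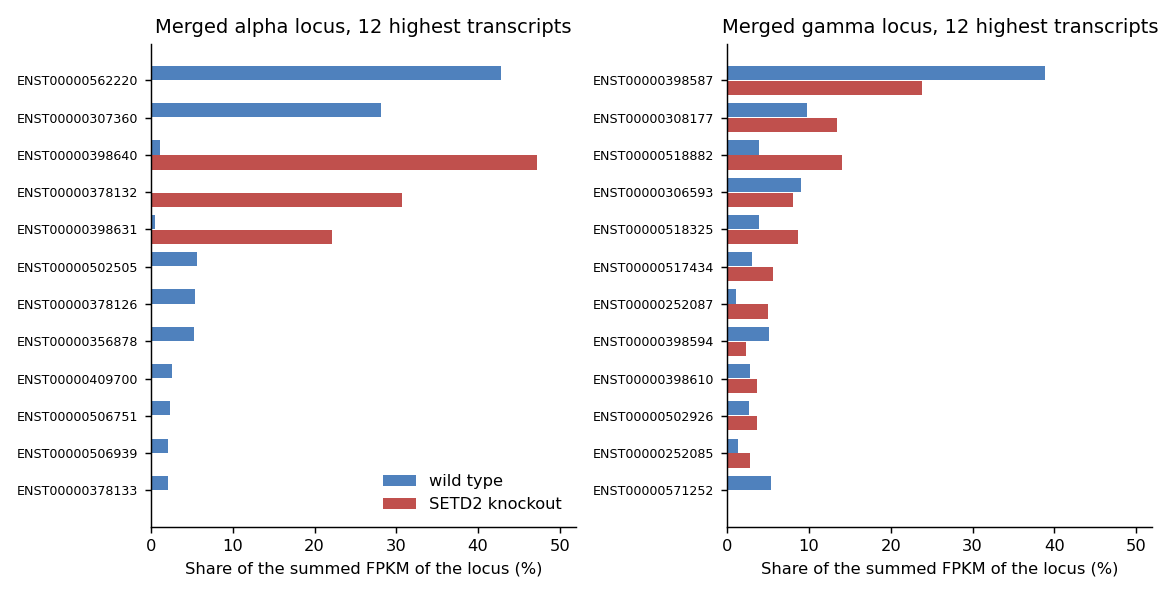
Share of the summed FPKM of the merged alpha (left) and gamma (right) loci held by the 12 transcripts with the highest mean, in wild type (blue) and SETD2 knockout (red). The alpha bars of the groups hardly coincide, while in gamma ENST00000398587 leads in both groups with 38.9% and 23.9%.

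Reads from near-identical copies bear on all of these values. The beta genes resemble one another closely, and transcripts within alpha or within gamma can share constant exons. The split of reads among them thus rests on the authors' estimation. The labels do not state how reads with several matches were treated. Single transcript values and shares are therefore uncertain, and how far the cluster sums depend on that split was not tested.

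Between beta and gamma lay 3 loci, of which only a single locus gave a measured reference inside the window. The locus at 5:140698057-140700339 stood at 47.8 FPKM in the knockout against 47.6 FPKM in the wild type. Its main transcript ENST00000313368 had 40.9 FPKM in each group in the authors' deposited table (p = 0.995, q = 0.997, authors' test), with intervals of 28.7 to 56.7 FPKM for knockout cells and 26.9 to 53.0 FPKM for wild type cells. The second transcript, ENST00000535969, stood at 6.83 FPKM and 6.75 FPKM in the authors' deposited table (p = 0.987, q = 0.995, authors' test). These were the only rows of the window of at least 1 FPKM. Beside them lay a locus at 5:140705777-140708924 with 0.119 FPKM in the knockout against 0.380 FPKM in the wild type, and one at 5:140682196-140683612 listed at 0 in the knockout and at 0.0349 FPKM in the wild type. The expressed locus just before gamma thus had nearly the same level in both groups, while the low loci beside it were listed lower in the knockout, without a test. Among all loci with a mean above 0 and up to that of the highest beta locus, 75.9% were lower too. The locus at 5:140705777-140708924 lay somewhat above that range. Nothing particular to these low loci can be read from their direction.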

How the data were processed

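The labels list 3 wild type and 3 SETD2 knockout HEK293T RNA libraries; how many entered each deposited value is not stated. The authors deposited FPKM as 1 value per transcript and group, with interval bounds whose level is not given, per the file headers. They also deposited log2 folds, a test statistic (a score), p-values and q-values. The submitters' processing notes name TopHat, Cuffdiff, Bowtie 1.1.2 and hg19, without role or order. The test tables named for genes and for transcripts were identical, and each row is a transcript.

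Rows with the status FAIL or HIDATA were left out of the comparisons by level over all rows and loci, and the window held no such row. Values were summed per locus and cluster; shares are percentages of a locus sum. Calls are those of the deposited q-value under 0.05, since group values allow no other test. In addition, 1 was added to each start, since the files count from 0. The functions were tested on simulated data.

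Named transcripts were those with a q-value under 0.05, the largest differences among rows of at least 0.5 FPKM, the 8 highest of alpha or gamma by mean, and those at least 5 points apart in share; no beta locus reached the 1 FPKM that the rule asked for, so beta loci were picked for naming after their values were seen, as were other rows outside the rule. The window, lists and tests were chosen with earlier results of these data known. The lists of related genes and of cell markers were not used, since no ID could be paired with a name. Python 3.11.15, pandas 2.3.3, numpy 2.4.6, scipy 1.17.1 and matplotlib 3.10.9 were used.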

Additional observations from a re-analysis of the deposited data

How the results depend on the processing

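Of 35 alternatives, 30 moved the value by less than 1.5-fold and kept its direction. Many of these could hardly have moved it, so the tally does not show how firm the results are. Keeping all rows changed no value. Centring on the median locus and scaling without mitochondrial and short loci only subtracted constants of 0.056 and -0.014 from each log2 fold. Replicate spread was not measurable. The sum of the 3 clusters turned from a log2 fold of 0.14 to -0.12 with the tracking table. The median log2 fold of rows of at least 1 FPKM, which rests on the 2 rows between beta and gamma, went from 0.0089 to -0.0069 at a minimum of 0.1 FPKM, where more rows enter, and to -0.047 when centred on the median locus. The count of alpha and gamma transcripts whose share differed by at least 5 points was 11, without a count over other loci beside it. It was 4 when limited to transcripts of at least 0.1 FPKM, where fewer transcripts enter. Of the 17 protocadherin transcripts of at least 0.1 FPKM, 7 were at least 2-fold apart with a pseudocount of 0.1 (3 higher and 4 lower in the knockout; 45% of all such rows), and 0 with a pseudocount of 1, which exceeds every value compared. Their median log2 fold was -0.01, like that of all such rows, and -0.24 in the tracking table; these alternatives were chosen after the data were seen. Leaving out a library was not possible with group values. No paired analysis was possible because the tables hold no value per library.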

Other observations

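The loci next to the window were read in the same way. Of the loci ending within 200000 bases before alpha, 4 reached at least 1 FPKM. Their log2 folds of knockout over wild type ran from 0.05 to 0.68 in the table of tests, with a median of 0.35. In the tracking table they ran from 0.01 to 0.43, with a median of 0.16. The lowest there, 5:140105743-140105831, stood at 0.60 in the table of tests. Within the same distance after gamma, 3 such loci lay between -0.47 and 0.19, with a median of -0.05 and -0.12 in the 2 tables. The locus directly after gamma, 5:140894583-141016437, stood at 248.4 FPKM in knockout cells and 257.8 FPKM in wild type cells.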
